A study of Mus musculus with 6 samples.

Results

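The genes described here are 38 genes of heterotrimeric G protein signalling in mouse hematopoietic stem cells (HSCs), taken by name from a table of 27198 genes. They code for 12 alpha, 4 beta and 7 gamma subunits, 9 regulators of G protein signalling (RGS proteins), 3 G protein-coupled receptor kinases, 2 arrestins and the alpha subunit chaperone Ric8a. Their names were chosen with the difference between the groups already known, so the differences below are a description and support no claim about the group of genes as a whole. HSCs were sorted from the bone marrow of unirradiated wild-type male C57BL/6 mice aged 8 to 10 weeks, as lineage-negative, Sca-1-positive, c-Kit-positive, Flk2-negative and CD34-negative cells. Control (Ctrl) mice received solvent. Mice of the long-term ferulic acid group (l-FA) received this plant phenolic acid by intraperitoneal injection at 50 mg/kg once a day for 30 days. Each group had 3 libraries of amplified cDNA. How many mice contributed to a library is not stated in the sources used here, so p-values measure only the spread between these libraries, which may be technical.

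G protein-coupled receptors sense chemokines, lipids, prostaglandins and nucleotides, and in bone marrow such receptors help to hold HSCs in their niche. A bound receptor makes the alpha subunit exchange GDP for GTP and part from the beta-gamma pair. Gs alpha stimulates adenylyl cyclase, Gi/o alpha inhibits it, Gq/11 alpha activates phospholipase C beta, and G12/13 alpha acts on the cytoskeleton. RGS proteins speed up GTP hydrolysis by alpha subunits and so shorten the signal, while receptor kinases and arrestins switch off the receptor itself.

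Total counts ranged from 19287735 to 20380610 per library. The 38 genes took up 0.249% to 0.259% of all counts in Ctrl and 0.288% to 0.298% in l-FA. At the median of these genes, a pair of libraries from the same group gave a chi-square, scaled by library totals, of 0.746 to 1.61. It was 0.888 to 1.07 at the median of all genes tested, and 0.455 if counting were the sole source of error. A pair from different groups gave 16.9 to 38.4, beside 8.19 to 8.83 for all genes. Chi-square grows with the count, so the higher value is no sign of larger differences. The median absolute log2 fold change was 0.29 in these genes and 0.29 in all genes tested. Some genes, such as Arrb1 and Gng7, varied far more between replicates. Marker genes bear on what the libraries contained. All 11 granulocyte markers, among them Mpo and Elane, were over 2-fold lower in l-FA, and their summed level was 23151 to 24073 CPM (counts scaled to the size of the library) in Ctrl libraries and 5719 to 6031 CPM in l-FA libraries. Of 9 HSC markers 7 were higher and 1 was lower. Cd34 and Flt3, whose proteins were sorted against (Flt3 is Flk2), were abundant, at 133 ± 1.13 and 119 ± 0.144 FPKM (the count scaled by gene length and library total, ± SD, n = 3) in Ctrl and 165 ± 3.47 and 197 ± 2.57 FPKM in l-FA, against 0.326 ± 0.0845 and 1.28 ± 0.084 FPKM for the HSC marker Slamf1. The transcripts therefore did not match the sorted phenotype in full. Of the other lists, 3 of 6 megakaryocyte and 3 of 5 mast cell and basophil markers were higher, 2 were higher and 3 lower of 6 monocyte markers, 1 was higher and 1 lower of 6 erythroid markers, and both T and NK cell markers tested were lower, while 1 of 3 B cell markers tested was higher. No listed marker present in the table was at 0 in all libraries. In bulk RNA, fewer cells of a type and less RNA per cell cannot be told apart, and the part of other cells in the values below was not tested.

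Of the 38 genes, 36 had enough counts to be tested, and 22 passed an adjusted p of 0.05 in edgeR's quasi-likelihood test, 16 higher and 6 lower in l-FA. This is 61.1% of those tested, beside 50.5% of all 16520 genes tested. The shares were 44.4% higher and 16.7% lower, beside 25.5% and 25.0% of all genes. Only Gna14, Gnai1 and Grk5 also differed by over 2-fold, each higher in l-FA, which is 8.33% beside 11.8% of all genes (6.68% higher and 5.10% lower). Of these, Grk5 had enough counts for testing in every library only in l-FA, the group where it was higher. The median log2 fold change was 0.21, beside 0.00 over all genes. The normalised values of the groups did not overlap in 25 genes (69.4%, beside 60.3% of all genes). The 2 genes not tested were Gnao1, an alpha subunit abundant in neurons, with 2 or 3 counts in every library, and Rgs16, with 1 count in 1 Ctrl library and 0 in the other 5. Since 3 counts is the limit that a count of 0 allows, a Rgs16 level of up to 0.147 to 0.156 CPM could not be seen.

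**Figure D1:**
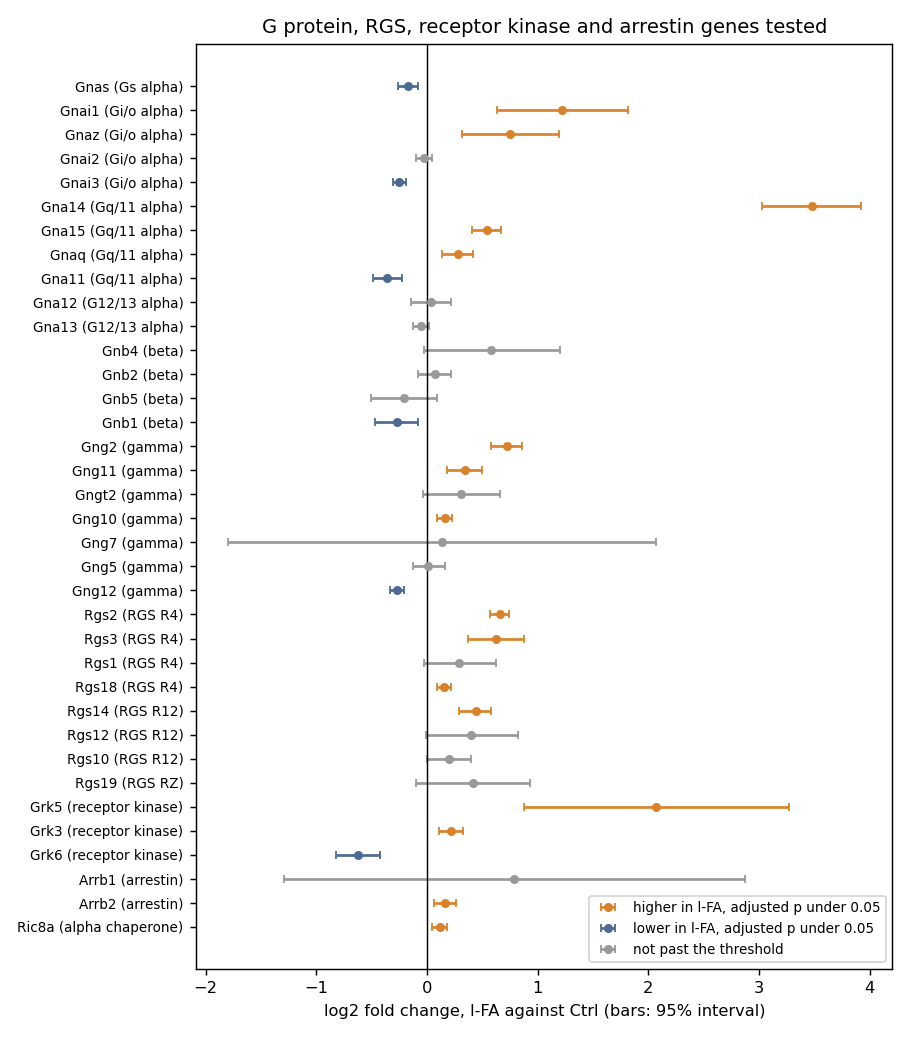
Log2 fold change (horizontal axis) of l-FA against Ctrl for the 36 genes tested (vertical axis, grouped by class), with 95% intervals from the edgeR fit over 3 libraries a group. Gna14 stands at 3.48, most of the other genes lie within 1 of 0, and the intervals of Gng7 and Arrb1 are the widest.

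Gq/11 alpha subunits gave the widest range of differences among the classes. All 4 genes passed the test, beside 50.5% of all genes, with Gna14, Gna15 and Gnaq higher and Gna11 lower in l-FA. Gna14, whose product couples receptors to phospholipase C beta and is found in few tissues, had 12, 20 and 16 counts in Ctrl and 180, 191 and 197 counts in l-FA. It thus had few counts in each Ctrl library, and every l-FA library lay far above them. The level was 0.833 ± 0.225 CPM (SD, n = 3, normalised by the trimmed mean of M-values, TMM, as are all CPM of single genes below) in Ctrl and 9.32 ± 0.67 CPM in l-FA, an 11.1-fold difference with a log2 fold change of 3.48 (SE 0.18, adjusted p = 3.44e-05 in edgeR's test). With each library left out in turn the log2 fold change stayed between 3.31 and 3.69.

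Gna15, the promiscuous alpha subunit of blood cells that accepts signals from many receptors, was the most abundant Gq/11 gene. It was at 91.4, 96.0 and 85.7 CPM in the Ctrl libraries and at 127, 131 and 139 CPM in the l-FA libraries. The groups lay apart, and the 1.45-fold difference (log2 fold change 0.54, SE 0.054) had an adjusted p of 0.000335 in edgeR's test. Gnaq, the widely expressed founding member, was at 39.4, 37.0 and 39.2 CPM in Ctrl and 46.4, 49.7 and 44.1 CPM in l-FA, 1.21-fold higher (SE 0.059 on the log2 scale, adjusted p = 0.00797 in edgeR's test). Its close relative Gna11 went the other way, from 30.2, 31.2 and 31.2 CPM in Ctrl to 23.1, 24.9 and 24.0 CPM in l-FA, a fall by 0.36 on the log2 scale (SE 0.054, adjusted p = 0.00172 in edgeR's test). Here too every l-FA library was below every Ctrl library.

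**Figure D2:**
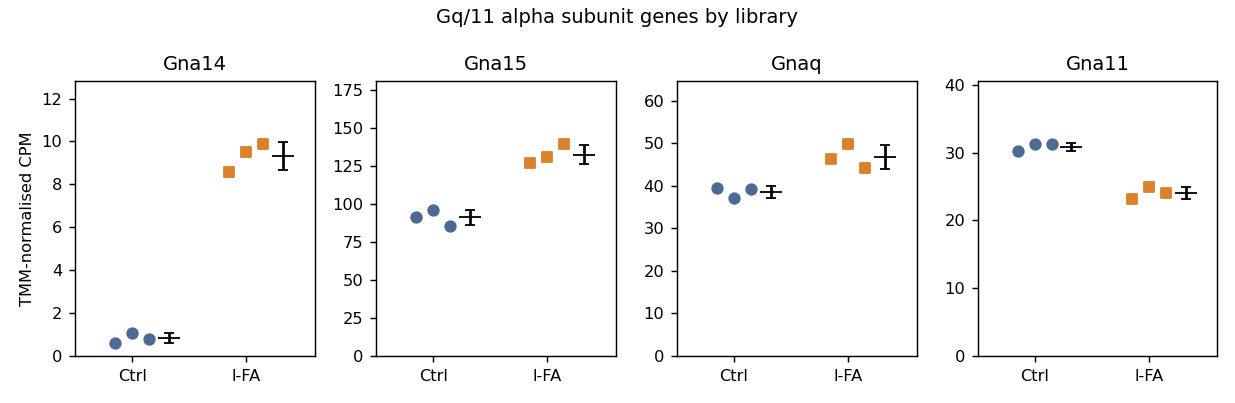
Level of the 4 Gq/11 alpha subunit genes in TMM-normalised CPM (vertical axes, each from 0), with 1 point per library and the mean ± SD of 3 libraries beside each group. The groups do not overlap in any of the 4 genes, and Gna11 alone is lower in l-FA.

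These 4 genes lie in 2 neighbouring pairs whose members did not move alike. In the coordinates of the deposited table, for which the submitters' processing notes list build GRCm39, Gnaq (chromosome 19, 16110195 to 16364827) ends 48.3 kb before Gna14 (16413126 to 16588184), and Gna15 (chromosome 10, 81338140 to 81360059) ends 4498 bases before Gna11 (81364558 to 81381024). Gna11 fell and Gna15 rose, and Gna14 differed by a far larger factor than Gnaq. Reads on overlapping genes bear on Gnaq, because 2 processed pseudogenes inside its span, Gm53055 and Gm10819, had 293 to 395 and 687 to 887 counts per library. Both were lower in l-FA, by 0.33 and 0.27 on the log2 scale, while Gnaq was higher. The pseudogenes inside the span of Gna14 had 0 or 1 count in each library, and those and a microRNA gene inside Gna15 had at most 8.

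Because the pairs are neighbours with unlike changes, the 250 bases before the RefSeq start of each gene are given, from RefSeq on build GRCm38.p6 and 5′ to 3′ on the strand of the gene. The windows are chr19:16132434-16132683 on the plus strand for Gnaq, chr10:81545163-81545412 on the minus strand for Gna11, chr19:16435417-16435666 on the plus strand for Gna14, and chr10:81524226-81524475 on the minus strand for Gna15. Capitals mark matches on either strand to a GC box (GGGCGG), an ETS motif (CCGGAAG), an antioxidant response element (TGACNNNGC) or a cAMP response element (TGACGTCA), which were the motifs searched.
Gnaq: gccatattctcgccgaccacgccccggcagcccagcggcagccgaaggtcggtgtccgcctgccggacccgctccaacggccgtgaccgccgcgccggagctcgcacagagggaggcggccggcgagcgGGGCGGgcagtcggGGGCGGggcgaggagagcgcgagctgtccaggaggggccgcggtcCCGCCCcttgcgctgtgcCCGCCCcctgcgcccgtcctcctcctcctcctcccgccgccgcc
Gna11: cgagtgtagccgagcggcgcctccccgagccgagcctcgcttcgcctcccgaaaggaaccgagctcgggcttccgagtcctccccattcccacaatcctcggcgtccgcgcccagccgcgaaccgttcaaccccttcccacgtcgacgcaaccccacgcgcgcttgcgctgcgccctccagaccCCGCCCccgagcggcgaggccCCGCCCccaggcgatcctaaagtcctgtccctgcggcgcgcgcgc
Gna14: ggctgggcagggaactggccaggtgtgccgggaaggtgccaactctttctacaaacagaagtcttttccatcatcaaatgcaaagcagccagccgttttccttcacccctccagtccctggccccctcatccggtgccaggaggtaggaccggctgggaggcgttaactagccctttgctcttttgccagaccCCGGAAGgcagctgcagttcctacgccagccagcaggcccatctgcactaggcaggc
Gna15: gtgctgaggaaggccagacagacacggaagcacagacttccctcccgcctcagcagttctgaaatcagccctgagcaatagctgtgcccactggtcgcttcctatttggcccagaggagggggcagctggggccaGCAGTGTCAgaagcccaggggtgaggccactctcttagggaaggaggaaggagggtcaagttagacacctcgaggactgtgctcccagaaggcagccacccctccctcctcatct
The Gnaq window held 4 GC boxes, at 121, 107, 62 and 44 bases before the start, and the Gna11 window held 2, at 66 and 45 bases. Neither Gna14 nor Gna15 held one. The Gna14 window had 1 ETS match 57 bases before the start, and the Gna15 window had 1 antioxidant response element match, in reverse orientation, 115 bases before it. GC content was 79.2% for Gnaq and 73.2% for Gna11 but 60.0% for Gna14 and 60.4% for Gna15, beside a median of 52.4% over all 32851 windows. Matching by symbol gave 38 promoter windows for 27 of the 38 genes. A GC box was in 22 of these windows (32.7% of all windows held one), an antioxidant response element in 6 (10.2% of all windows) and an ETS motif in 3 (6.91% of all windows). By gene these were 18, 5 and 3, since some genes have more than 1 window with a match. In Grk6 and Rgs19 these windows overlap, while in Gnas and Rgs12 they lie apart. The median GC content of these windows was 64.0%, beside 52.4% of all windows, and its part in the GC box count was not tested. None of the 38 windows held the cAMP response element, found in 1.55% of all windows. A match of letters is no evidence of binding.

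Gi/o alpha subunits made up most of the alpha subunit RNA. Gnai3, which inhibits adenylyl cyclase and is the most abundant alpha subunit gene by FPKM here, was at 318, 320 and 313 CPM in Ctrl and 264, 264 and 273 CPM in l-FA. It fell by 0.25 on the log2 scale (SE 0.024, adjusted p = 0.000305 in edgeR's test), and the groups did not overlap. Gnai2, the main Gi subunit of most blood cells, was at 258 to 279 CPM over all 6 libraries, with a log2 fold change of -0.03 and a 95% interval of -0.10 to 0.05. The less abundant relatives were higher in l-FA. Gnai1 had 11, 14 and 15 counts in Ctrl and 27, 41 and 31 counts in l-FA, and its levels of 0.573, 0.75 and 0.753 CPM and 1.29, 2.04 and 1.55 CPM gave a 2.34-fold difference (log2 fold change 1.22, SE 0.25, adjusted p = 0.00639 in edgeR's test). Gnaz, whose product is the pertussis toxin-resistant Gz subunit of platelets and neurons, was at 4.47 ± 0.762 CPM (SD, n = 3) in Ctrl and 7.54 ± 1.28 CPM in l-FA, which gave a log2 fold change of 0.75 (SE 0.18, adjusted p = 0.0134 in edgeR's test).

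The stimulatory subunit gene Gnas was at 6.16, 6.30 and 5.98 FPKM in Ctrl and at 5.71, 5.69 and 5.90 FPKM in l-FA. On the CPM scale it was at 114 ± 3.58 and 102 ± 2.25 (SD, n = 3), a small fall, by 0.17 on the log2 scale (SE 0.036, adjusted p = 0.00798 in edgeR's test), without overlap between the groups. The G12/13 genes did not pass the test. Gna13 was at 88.8, 86.2 and 87.1 CPM in Ctrl and 83.4, 83.7 and 85.6 CPM in l-FA, with a log2 fold change of -0.05 and an interval of -0.13 to 0.02. Gna12, at 15.3 to 17.7 CPM, had a log2 fold change of 0.04 with an interval of -0.14 to 0.22. It overlaps Amz1, which fell by 1.66 on the log2 scale in l-FA but had at most 124 counts.

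Per length, the make-up of the alpha subunit RNA therefore differed between the groups. As shares of the summed FPKM of the 12 alpha genes, Gi/o genes took 68.0%, 68.2% and 68.8% in Ctrl and 61.7%, 61.1% and 60.7% in l-FA. Gq/11 genes took between 19.5% and 20.3% in the 3 Ctrl libraries and 26.9%, 27.8% and 28.0% in l-FA. The groups did not overlap in either share. Gna15 alone accounted for most of the Gq/11 share, with 13.9% ± 0.562 (SD, n = 3) in Ctrl and 20.5% ± 0.623 in l-FA, while Gna14 took 0.106% ± 0.0272 and 1.20% ± 0.0724. The share of Gnai3 was 48.5% ± 0.362 in Ctrl and 41.2% ± 0.402 in l-FA. The gene length used matters for levels between genes. With the longest GENCODE M21 transcript as the length, the Gq/11 share was 18.9% ± 0.408 in Ctrl and 25.7% ± 0.706 in l-FA, and the most abundant alpha gene was Gnai2 (36.7% ± 0.761 and 35.7% ± 0.902) rather than Gnai3 (29.4% ± 0.399 and 24.5% ± 0.345).

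**Figure D3:**
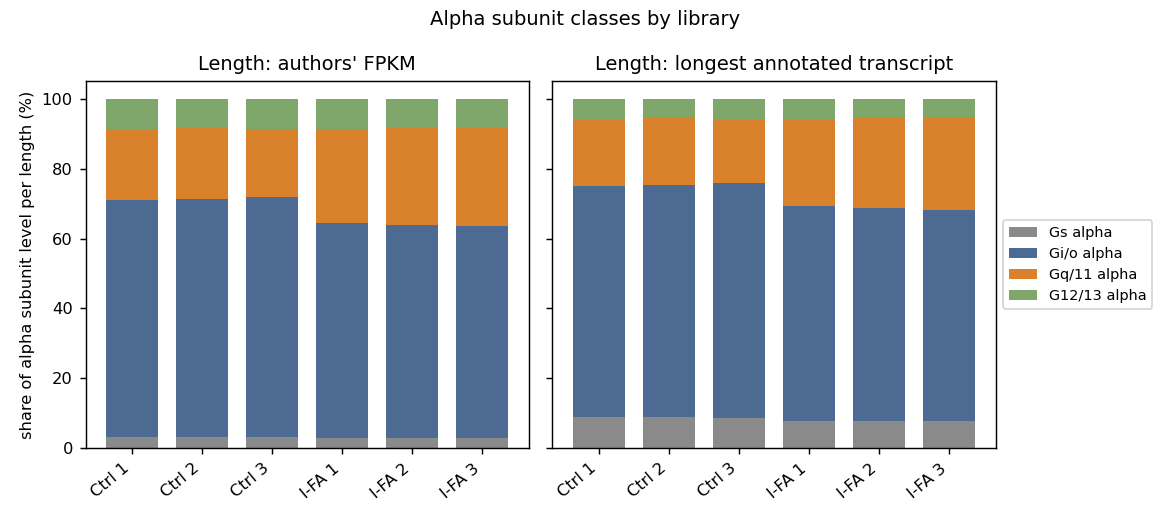
Share (%, vertical axis from 0) of each alpha subunit class in the summed level per length of the 12 alpha genes, as 1 stacked bar per library (horizontal axis), with the length of the authors' FPKM on the left and of the longest annotated transcript on the right. With either length the Gq/11 share is higher and the Gi/o share lower in each l-FA library than in any Ctrl library.

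Of the beta subunits, which form a tight pair with gamma, 1 of 4 passed the test (25.0%, beside 50.5% of all genes). Gnb1 was at 43.9, 38.3 and 37.9 CPM in Ctrl and 30.6, 33.7 and 35.2 CPM in l-FA, a fall by 0.27 on the log2 scale (SE 0.081, adjusted p = 0.0305 in edgeR's test). The call was lost with the replicate number as a block (adjusted p = 0.085) and without Ctrl replicate 1, l-FA replicate 1 or l-FA replicate 2 (adjusted p = 0.0693, 0.101 and 0.0746). Gnb4 depended on 1 library. It was at 23.1, 46.6 and 47.8 CPM in Ctrl and 60.6, 56.4 and 59.0 CPM in l-FA, so that Ctrl replicate 1 was at about the midpoint between 0 and the other Ctrl libraries. The log2 fold change was 0.58 (SE 0.26, adjusted p = 0.104 in edgeR's test), and without that library it was 0.31 with an adjusted p of 0.00581. Gnb2 had a log2 fold change of 0.07 (interval -0.08 to 0.22), and Gnb5, the partner of R7 RGS proteins, had one of -0.21 (interval -0.51 to 0.09).

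Gamma subunits, the small lipid-anchored partners of beta, moved in both directions, with 3 of 7 higher and 1 lower. These are 42.9% and 14.3%, beside 25.5% and 25.0% of all genes. Gng10 had the highest level per length of the class (123 FPKM in Ctrl, beside 24.7 FPKM for Gng11). It was at 166, 164 and 166 CPM in Ctrl and 189, 186 and 180.0 CPM in l-FA, 1.12-fold higher (adjusted p = 0.00361 in edgeR's test). Gng2, a common partner of Gnb1, was at 66.9 ± 5.16 CPM (SD, n = 3) in Ctrl and 110.0 ± 2.3 CPM in l-FA, which gave a log2 fold change of 0.72 (SE 0.06, adjusted p = 0.000172 in edgeR's test) and the most marked of the class. Gng12 fell from 159 ± 1.58 to 132 ± 0.376 CPM, by 0.27 on the log2 scale (adjusted p = 0.000239 in edgeR's test). Gng2 and Gng12 thus changed places in the class: the share of Gng2 in the summed gamma FPKM was 6.36% ± 0.49 in Ctrl and 9.14% ± 0.178 in l-FA, and that of Gng12 was 7.74% ± 0.109 and 5.60% ± 0.124. With the longest annotated transcript as the length, both shares moved in the same directions but Gng12 (15.8% and 11.7%) stayed above Gng2 (7.41% and 10.9%). Gng11, known from platelets and endothelium, was 1.27-fold higher (log2 fold change 0.34, SE 0.068, adjusted p = 0.006 in edgeR's test).

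The remaining gamma genes did not pass. Gng5 was at 30.4 to 33.6 CPM in all libraries, with a log2 fold change of 0.01 (interval -0.13 to 0.16). Gngt2, the cone photoreceptor gamma, was at 3.44 to 5.48 CPM with a log2 fold change of 0.31 (interval -0.04 to 0.66), and its span overlaps Abi3, which rose by a log2 fold change of 0.41. Gng7 had 100, 89 and 93 counts in Ctrl and 162, 6 and 161 counts in l-FA. In l-FA replicate 2 it was nearly absent while the other l-FA libraries exceeded every Ctrl library, and the log2 fold change was 0.14 with an SE of 0.81. Without that library it was 0.70 with an adjusted p of 0.00471 in edgeR's test.

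Of the RGS genes, 4 of the 8 tested passed in edgeR's test, all of them higher in l-FA. The other 4, Rgs1, Rgs10, Rgs12 and Rgs19, had log2 fold changes of 0.20 to 0.42 that did not pass. The R4 group holds the small RGS proteins that act on Gi and Gq. Rgs18, the RGS gene of platelets and megakaryocytes, had the highest FPKM of all 38 genes in both groups, at 148 ± 3.05 (SD, n = 3) in Ctrl and 174 ± 3.8 in l-FA. It was at 318, 309 and 304 CPM in Ctrl and 350.0, 347 and 337 CPM in l-FA, 1.11-fold higher (SE 0.027 on the log2 scale, adjusted p = 0.00332 in edgeR's test). Beside it, the summed level of the 6 megakaryocyte markers was 187 to 195 CPM in Ctrl and 264 to 274 CPM in l-FA. Most of that sum was Itga2b, at 171 to 177 CPM in Ctrl and 237 to 242 CPM in l-FA. Of the other markers, Gp9 and Mpig6b were higher, and Pf4, Gp1bb and Ppbp did not pass the test. Whether these markers bear on Rgs18 was not tested.

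Rgs2, which acts preferentially on Gq, was at 80.0, 79.5 and 82.5 CPM in Ctrl and 131, 123 and 127 CPM in l-FA. The log2 fold change was 0.66 (SE 0.036, adjusted p = 3.76e-05 in edgeR's test), and with each library left out it was 0.64 to 0.69. Rgs3 was at 24.9 ± 0.254 CPM in Ctrl and 38.4 ± 5.41 CPM in l-FA, a log2 fold change of 0.62 (SE 0.11, adjusted p = 0.00294 in edgeR's test). Rgs1, which damps chemokine receptors in lymphocytes, had 1 Ctrl library at the level of l-FA. It was at 94.7, 128 and 87.9 CPM in Ctrl and 124, 132 and 125 CPM in l-FA, with a log2 fold change of 0.29 (SE 0.14, adjusted p = 0.117 in edgeR's test), and without Ctrl replicate 2 the log2 fold change was 0.47 with an adjusted p of 0.00155. Rgs1, Rgs2 and Rgs18 are neighbours on chromosome 1, with 238 kb between Rgs2 and Rgs1 and 503 kb between Rgs1 and Rgs18, and their fold changes of 0.29, 0.66 and 0.15 on the log2 scale were unequal in size.

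In the R12 group, Rgs14, which binds both Gi alpha and Ras-like proteins, was at 36.1, 39.9 and 41.7 CPM in Ctrl and 53.1, 53.8 and 52.3 CPM in l-FA. It was 1.35-fold higher (log2 fold change 0.44, SE 0.061, adjusted p = 0.0013 in edgeR's test) without overlap. Rgs10 (log2 fold change 0.20, interval -0.00 to 0.40) and Rgs12 (0.40, interval -0.01 to 0.82) did not pass. Rgs19, of the RZ group, which acts on Gz and Gi, had 1615, 1648 and 2988 counts in Ctrl and 2999, 2898 and 2866 counts in l-FA. Ctrl replicate 3 lay at the level of the l-FA libraries while the other Ctrl libraries were well below, so the log2 fold change of 0.42 had an SE of 0.22 (adjusted p = 0.153 in edgeR's test). Without Ctrl replicate 3 it was 0.73 (adjusted p = 0.000203).

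**Figure D4:**
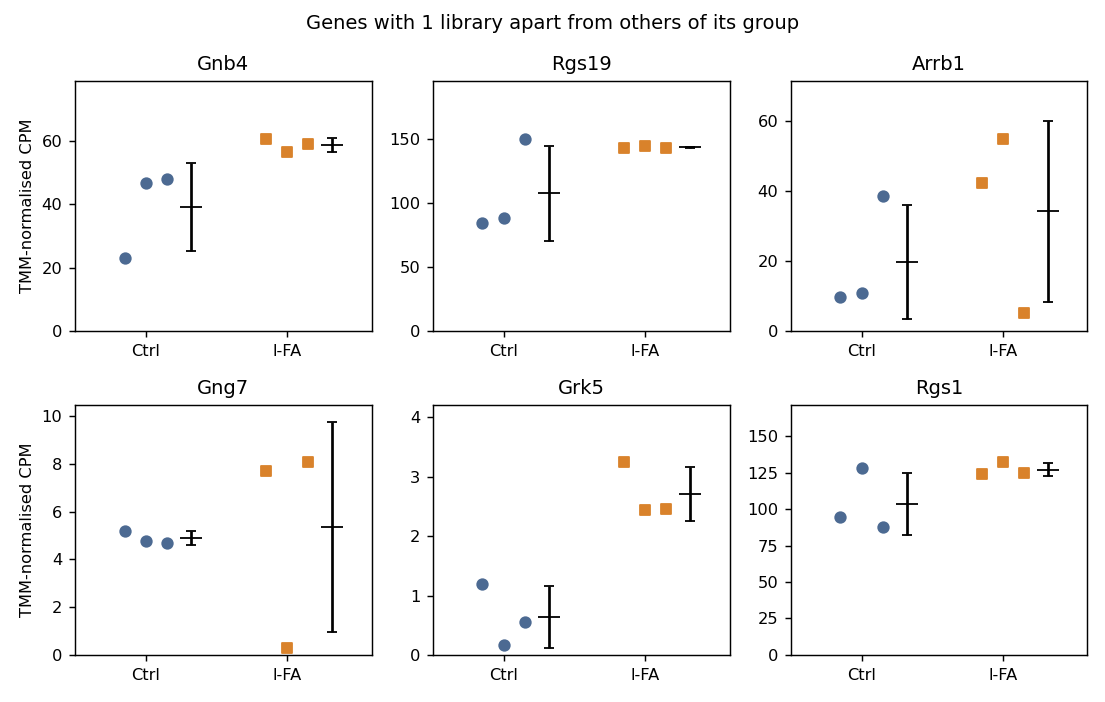
Level of 6 genes in TMM-normalised CPM (vertical axes, each from 0), with 1 point per library and the mean ± SD of 3 libraries beside each group, for genes where 1 or more libraries lay apart from the others of its group. In Rgs19 a single Ctrl library lies with the l-FA libraries, in Gnb4 a single Ctrl library is low, and in Gng7 and Arrb1 a single l-FA library is near the bottom of the axis.

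Receptor kinases phosphorylate active receptors so that arrestins can bind, and the 3 genes all passed the test, beside 50.5% of all genes. One of them, Grk5, entered the test only through its counts in l-FA. Grk5 had 23, 3 and 11 counts in Ctrl and 68, 49 and 49 counts in l-FA. At 1.20, 0.161 and 0.552 CPM in Ctrl and 3.24, 2.44 and 2.45 CPM in l-FA it was 4.21-fold higher, with a log2 fold change of 2.07 (SE 0.5, 95% interval 0.88 to 3.27, adjusted p = 0.0129 in edgeR's test). The Ctrl libraries differed among themselves by several-fold, and the log2 fold change ranged from 1.63 to 2.89 as each library was left out. Its span overlaps Zfp950, a far more abundant gene with 662 to 1045 counts that rose by a log2 fold change of 0.45. Grk3 was at 57.8, 57.0 and 56.1 CPM in Ctrl and 63.0, 69.6 and 66.6 CPM in l-FA, 1.17-fold higher (adjusted p = 0.00782 in edgeR's test). Grk6, the kinase that acts on CXCR4 in blood cells, went the other way, at 28.0 ± 2.08 CPM in Ctrl and 18.2 ± 1.25 CPM in l-FA (SD, n = 3), a fall by 0.62 on the log2 scale (SE 0.083, adjusted p = 0.0011 in edgeR's test) and the most marked fall among the 38 genes. It lies 60.4 kb from Rgs14 on chromosome 13, which rose.

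Arrestin genes gave 1 call. Arrb2 was at 58.3, 62.8 and 61.7 CPM in Ctrl and 69.0, 68.1 and 66.7 CPM in l-FA, 1.12-fold higher (adjusted p = 0.0194 in edgeR's test), a call that was lost with the replicate block (adjusted p = 0.055) and without Ctrl replicate 1 (adjusted p = 0.0613). Arrb1 was split within both groups. Its 189, 203 and 768 counts in Ctrl and 892, 1104 and 104 counts in l-FA were high in 1 Ctrl library and low in 1 l-FA library, and the log2 fold change of 0.79 had an SE of 0.87 (adjusted p = 0.488 in edgeR's test). Ric8a, which folds newly made Gi, Gq and G12/13 alpha subunits, was at 153, 151 and 153 CPM in Ctrl and 166, 167 and 162 CPM in l-FA, 1.08-fold higher (adjusted p = 0.00936 in edgeR's test). It overlaps Bet1l and Sirt3 at its ends, and both were higher too, by 0.43 and 0.40 on the log2 scale.

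Of all 38 genes, 20 overlap another gene of the table, and whether reads were counted by strand is not stated in the sources used here. The 18 genes that overlap none included 17 tested, of which 9 were higher and 2 lower (52.9% and 11.8%, beside 25.5% and 25.0% of all genes). Only Gnai1 was over 2-fold (5.88%, beside 11.8%). In Gnb4, Gng7, Grk5 and Arrb1, as in 6.41% of all genes tested, some library differed by 2-fold or more from each of the other libraries in its group. Without these 4 genes, 21 of 32 passed, 15 higher and 6 lower (46.9% and 18.8%, beside 25.5% and 25.0% of all genes).

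By level per length, 12 of the 38 genes exceeded 10 FPKM in both groups, and the order at the top was Rgs18, Gng10 and Gnai3, each above the next in every library. Gnai2 (37.8 FPKM in Ctrl, 39.1 FPKM in l-FA) and Gna15 (27.2 and 41.7 FPKM) changed places between the groups on this scale. Gng11 (24.7 and 33.0 FPKM) and Rgs2 (16.7 and 27.8 FPKM) followed, and Rgs2 overlapped Rgs19 (16.2 and 22.8 FPKM) in Ctrl. Over the whole order, 21 of 37 neighbouring pairs in Ctrl and 18 of 37 in l-FA overlapped. The gene length behind the FPKM was longer than the listed span of the gene in Gnb2, Rgs1, Rgs19 and Ric8a and was 1.0 to 5.06 times the longest GENCODE M21 transcript over the 38 genes. With that transcript as the length, 20 genes exceeded 10 on the same scale, Gnai2 ranked above Gnai3 in both groups, and Gnai2 (118 in Ctrl, 122 in l-FA) stayed above Gna15 (45.1 and 69.2).

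Of 28 further genes of the family by name, the table held 15 and 7 had enough counts to be tested. Of these 7, 2 were higher and 2 lower (28.6% and 28.6%, beside 25.5% and 25.0% of all genes). Rgs8, an R4 gene known mainly from the brain, had 33, 41 and 58 counts in Ctrl and 176, 166 and 178 counts in l-FA, a log2 fold change of 1.90 (SE 0.18, adjusted p = 0.000309 in edgeR's test). Gnat2, the cone transducin alpha subunit, had 174, 142 and 178 counts in Ctrl and 77, 79 and 82 counts in l-FA and fell by 1.13 on the log2 scale (SE 0.11, adjusted p = 0.000323). Grk4, named after its values were seen, had 32 to 44 counts in Ctrl and 8 to 17 in l-FA. It had enough counts for testing in every library only in Ctrl. Grk2, the most studied receptor kinase, had 1892, 1047 and 1271 counts in Ctrl and 2303, 1464 and 1792 counts in l-FA. Same-numbered libraries of Grk2 ranked alike, and the log2 fold change was 0.32 (adjusted p = 0.31 in edgeR's test), 0.34 with the replicate block (adjusted p = 0.0241) and 0.60 without Ctrl replicate 1 (adjusted p = 0.04). Over the whole family, 26 of 43 genes tested passed (60.5%, beside 50.5% of all genes), 18 higher and 8 lower (41.9% and 18.6%, beside 25.5% and 25.0%).

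Downstream of these proteins, 38 of 44 listed effector genes were tested, with 14 higher and 8 lower (36.8% and 21.1%, beside 25.5% and 25.0% of all genes) and 5 over 2-fold (13.2%, beside 11.8%). On the Gq side, the IP3 receptor genes Itpr1, Itpr2 and Itpr3 were higher (log2 fold changes 0.32, 0.34 and 0.20), although Itpr3 kept its call in only 2 of 6 fits that left out a library (adjusted p up to 0.0894 in edgeR's test). Of 3 phospholipase C beta genes tested 1, Plcb2, passed, with a fall by 0.24 on the log2 scale. On the cAMP side, 1 of 5 adenylyl cyclase genes was higher (Adcy7, 0.30) and 2 were lower (Adcy3, -0.80, and Adcy4, with 19 to 32 counts in Ctrl and 0 in each l-FA library, at least 8.38-fold lower against 3 counts per library). Of 9 cAMP phosphodiesterase genes 5 were higher and 1 was lower (55.6% and 11.1%, beside 25.5% and 25.0% of all genes). Pde3b and Pde8b kept their calls in only 2 and 3 of 6 fits that left out a library (adjusted p up to 0.0753 and 0.103 in edgeR's test). Pde7b and Pde8b had enough counts for testing only in l-FA, and Adcy4 only in Ctrl. Pde7b had 0, 0 and 1 count in Ctrl and 57, 58 and 58 counts in l-FA, and Pde8b had 3 to 9 and 14 to 30 counts. Pde4c had 28, 39 and 39 counts in Ctrl and 104, 95 and 90 counts in l-FA, a log2 fold change of 1.36 (SE 0.16, adjusted p = 0.00062 in edgeR's test). All 6 protein kinase A genes tested passed, 3 higher and 3 lower, and the catalytic subunits went opposite ways, with Prkacb at 0.11 and Prkaca at -0.91 on the log2 scale. The regulatory subunit gene Prkar1b had 2, 0 and 3 counts in Ctrl and 33, 23 and 36 counts in l-FA, so it too had enough counts for testing only in l-FA. Of these effectors Pde4c was named by rule and the others after their values were seen.

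Upstream, 51 of 71 listed receptor genes were tested, with 24 higher and 8 lower (47.1% and 15.7%, beside 25.5% and 25.0% of all genes) and 10 over 2-fold (19.6%, beside 11.8%). Of these 10, Lpar4 and C3ar1 had enough counts for testing only in l-FA, and Cysltr1 only in Ctrl. In the other group Lpar4 and Cysltr1 had 0 counts in each library, and C3ar1 had 0 or 1. Cxcr4, the receptor that retains HSCs in bone marrow through Gi, had 75, 80 and 65 counts in Ctrl and 66, 72 and 69 counts in l-FA, with a log2 fold change of -0.17 (SE 0.14, adjusted p = 0.362 in edgeR's test). Genes over 2-fold higher included Ccr9, a chemokine receptor of lymphoid progenitors (1.03 on the log2 scale), and Adora2b, an adenosine receptor that couples to Gs and Gq, which was at 2.40 ± 0.262 CPM in Ctrl and 4.81 ± 0.456 CPM in l-FA (n = 3). Those over 2-fold lower included Lpar1, a lysophosphatidic acid receptor (-1.73), Ltb4r1, the leukotriene B4 receptor of granulocytes (-1.30), and Cxcr2, the chemokine receptor of neutrophils (-1.04). Ltb4r1 and Cxcr2 moved in the direction of the 11 granulocyte markers, and the part of granulocytic cells in their values was not tested. The anaphylatoxin receptor gene C3ar1 went the other way, with 17 to 22 counts in l-FA. The formyl peptide receptor gene Fpr1, with too few counts to be tested, had 0 or 1 count in Ctrl and 7 to 9 in l-FA.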

How the data were processed

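RNA of sorted HSCs was measured by sequencing amplified cDNA from 3 Ctrl and 3 l-FA libraries. The deposited table holds raw counts for each gene and, beside them, FPKM values that the authors made by dividing the counts by a gene length and the library total. The submitters' processing notes list HISAT2, SAMtools 1.3.1, StringTie, edgeR and build GRCm39 without their roles. Groups came from the labels. The test was that of edgeR 4.0.16 under R 4.3.3 (TMM, filterByExpr, glmQLFit, glmQLFTest) with Benjamini-Hochberg adjustment over 16520 genes. The SE is the log2 fold change divided by the square root of F. On simulated counts for these genes, 160 of 200 changed genes were recovered and 12 unchanged genes were called, and 2 were called with no gene changed. Of those recovered, 68 had a log2 change of 1 and 92 a log2 change of 2 in size. Smaller changes, such as most of those reported here, and a change in a large part of all genes were not simulated. The common biological coefficient of variation was 0.134. FPKM served only for levels between genes, described as means and SD. Depth was 19287735 to 20380610 counts, and limits at 0 counts cover counting error only. The genes and lists were chosen with earlier results of these data known. Values in every library are given for genes past the threshold and over 2-fold, for the gene with the highest FPKM of each class and for genes in which a library differed by 2-fold from each other library of the group, and for further genes to show the groups. By rule, listed genes outside the 38 are named where they passed, were over 2-fold and had a mean of at least 50 counts, with Cxcr4 and Grk2. The other family, effector and receptor genes outside the 38 were named after their values were seen. Promoters came from RefSeq (GRCm38.p6), and transcript lengths and strands from GENCODE M21. DESeq2 1.42.0, other scalings, filters, a replicate block and each library left out were the alternatives.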

Additional observations from a re-analysis of the deposited data

How the results depend on the processing

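Genes over 2-fold numbered 1946, but 3335 without a filter on low counts and 930 when every library had to reach 10 counts. Restricted to genes that overlap no listed gene, 11 of 17 tested passed (64.7%, beside 50.5% of all genes) and 1 was over 2-fold (5.88%, beside 11.8%). The number of genes over 10 per length was 20 with the longest GENCODE M21 transcript, a length chosen after seeing the data. Over all genes tested, the deviations of same-numbered libraries had correlations of 0.00393, -0.0106 and -0.0783. Values over all genes cannot exclude a shared replicate effect in some of them, and same-numbered libraries ranked alike in Grk2. With the replicate block, 20 of the 36 genes passed, 15 higher and 5 lower: Gnb1 and Arrb2 lost the call, and Gng7 turned to -0.26. With each library left out, 21 to 23 of the genes passed and 3 were over 2-fold each time, and log2 fold changes near 0 crossed it in Gng7 (-0.27 to 0.70), Gna12 (-0.01 to 0.08) and Gng5 (-0.02 to 0.05). Over all genes, 7459 to 7733 passed and 2035 to 2086 were over 2-fold. DESeq2 gave 22 genes passing and 3 over 2-fold of the 36. With at least 10 counts required in every library, 34 of the genes were tested and 21 passed, 15 higher and 6 lower. Grk5 and Gng7 do not meet that filter. The causes were not tested. Gnai1, Gna14 and Grk5 had 3 to 23 counts in each Ctrl library, which limits the precision of their folds.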
